A study of Rattus norvegicus with 35 samples.

Results

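The genes described are 10 members of the C/EBP and NF-κB systems: the C/EBP transcription factors Cebpa, Cebpb and Cebpd, the NF-κB subunits Nfkb1, Nfkb2 and Rela, the inhibitors Nfkbia and Tnfaip3, the IκB-like co-regulator Bcl3, and the target Icam1. They were taken by name from the platform annotation, and their 18 probe sets are among 31042 tested probe sets, of which 20826 carried a single gene symbol and stand for 14217 genes. Each gene was followed on the probe set with the highest mean over all 35 arrays. Retinas came from adult female Sprague-Dawley rats in which the left optic nerve was cut close behind the eye (intraorbital nerve transection, IONT) or crushed farther back along the nerve (intraorbital nerve crush, IONC). Naïve rats received no surgery. IONC was followed at 5 times from 12 h to 7 d with 3 arrays a time, and IONT with 3 arrays at 12 h, 48 h and 7 d and with 2 at 24 h, 3 d and 15 d, beside 5 naïve arrays. The RNA on an array was a pool of 4 retinas, all from different rats, and the p-values therefore rest on how pools vary. In whole retina, fewer cells of a type and less RNA per cell cannot be told apart.

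C/EBP proteins are leucine zipper factors that bind DNA as dimers. Cebpb and Cebpd are known as early response genes of inflammation and of the acute phase reaction, and Cebpa is better known from differentiating cells. NF-κB subunits dimerize through the Rel domain and are held in the cytoplasm by IκB proteins such as the product of Nfkbia. Receptors for TNF, IL-1 and microbial products release them through the IκB kinases. Nfkbia and Tnfaip3 (A20, a ubiquitin-editing enzyme) are textbook targets of NF-κB that shut the pathway down again. This control acts largely on proteins, which the arrays do not measure.

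The values are the log2 signals the authors deposited, and a change is a difference of log2 means. Calls come from limma fitted over all arrays and needed 3 things: an adjusted p (Benjamini-Hochberg) under 0.01, B, the log odds of a change, above 0, and a fold of 1.2 or more. For β-actin, the 3′ control signal exceeded the 5′ one by 1.53 to 1.93 on 27 arrays (array set 1) and by 2.61 to 3.65 on the other 8 (array set 2). Array set 2 held naïve replicates 4 and 5 and all arrays of IONT 24 h, 3 d and 15 d, which were therefore compared with those 2 naïve arrays alone. All other groups were compared with the 5 naïve arrays. Between the naïve arrays of the 2 sets, 7.47% of all probe sets and none of the 10 genes were called. IONC 12 h replicate 2 resembled the other arrays least (median r = 0.871, where all others had at least 0.962). Results of the 10 genes that rest on it, and counts over lists of genes, are also given without it. Changes of single genes outside the 10 are given over all arrays only.

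Of the 10 genes, 5 were called higher at 1 or more times after injury (Cebpb, Cebpd, Nfkb2, Bcl3 and Icam1), Tnfaip3 was called lower, and 4 were called at no time (Cebpa, Nfkb1, Rela and Nfkbia). After IONT, 12 of 60 gene-by-time comparisons were called, beside 2.87% of those of all probe sets, 9 of them higher (1.45%) and 3 lower (1.42%). After IONC, 16 of 50 were called (4.62%), 12 higher (1.6%) and 4 lower (3.02%). Without IONC 12 h replicate 2 these counts were 20 (6.65% of all) and 25 (8.76%), and Nfkb1 and Nfkbia joined the genes called higher. The comparisons share their naïve arrays and are not independent of each other. The median change of the 10 genes was highest at 12 h after IONC, 1.24, beside -0.04 over all genes.

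By time, the genes called after IONT numbered 5 at 12 h (beside 3.99% of all probe sets) and 4 at 48 h (5.36%), with none at 24 h (0.831%) or 15 d (1.87%). There was 1 at 3 d (0.954%), and 7 d had 2 (4.23%). After IONC they were 5 (7.76%), 3 (3.94%), 4 (4.37%), 2 (3.44%) and 2 (3.6%) from 12 h to 7 d. The calls were thus most frequent at 12 h and 48 h. The IONT groups of 24 h, 3 d and 15 d held 2 arrays against 2 naïve ones, so that few calls there do not show smaller changes. The median change of the 10 genes was 0.73 at 12 h after IONT, with 5 calls, and 0.78 at 15 d, with none. Without IONC 12 h replicate 2 the genes called numbered 6, 2, 6, 2, 3 and 1 after IONT (8.06%, 2.56%, 10.9%, 3.11%, 11.2% and 4.07% of all). After IONC they were then 8, 5, 6, 4 and 2 (8.89%, 8.39%, 9.45%, 8.75% and 8.3%).

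Signals that did not overlap those of the naïve arrays were common over the whole array and more so where groups held 2 arrays. After IONT this held at 12 h, 24 h and 48 h for 8 genes each time (14.6%, 46.5% and 23.9% of all probe sets), then for 7 (55%), 6 (49.5%) and 8 (66.5%) at the 3 later times. After IONC it held for 4 genes at 12 h (14.8%), for 8 each at 24 h (20.7%) and 48 h (28.1%), and then for 5 (44.9%) and 6 (46.6%). From 3 d on, the shares of the 10 genes were nearer to the background than before.

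**Figure D1:**
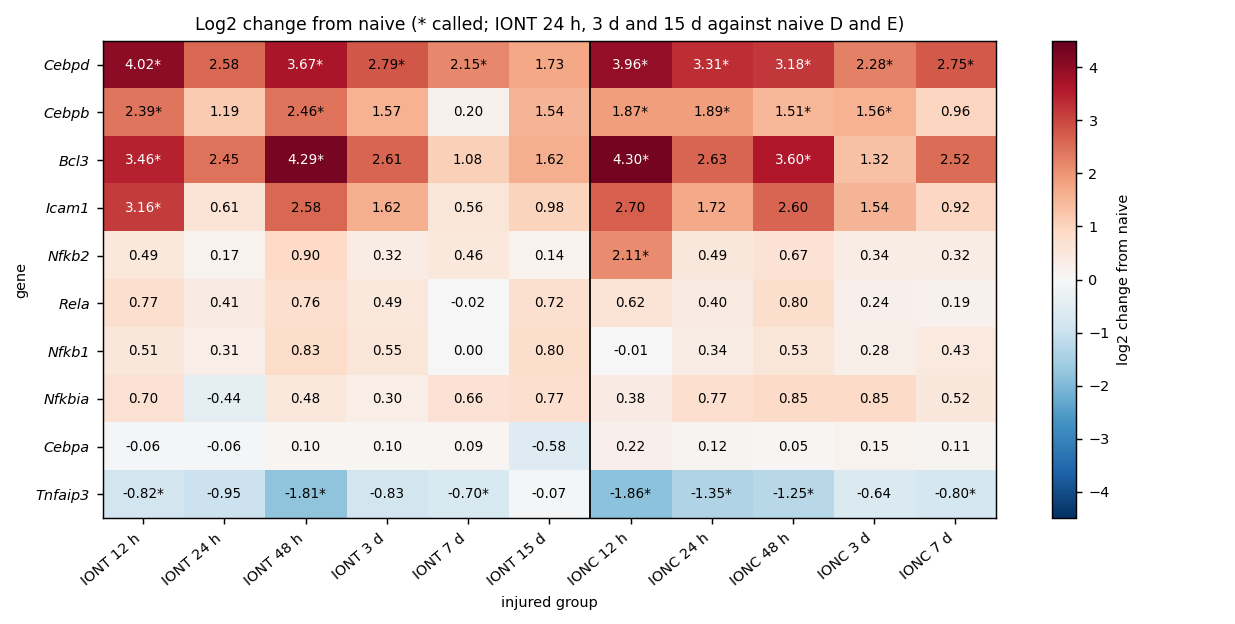
Log2 change from naïve for each of the 10 genes (lines) in each injured group (columns), with red for higher, blue for lower and an asterisk for a call. Cebpd carries 9 asterisks, Tnfaip3 is the only gene with asterisks on lower values (7), and the lines of Cebpa, Rela, Nfkb1 and Nfkbia carry none.

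Cebpd had the most calls, 4 of 6 times after IONT and 5 of 5 after IONC. Its naïve signals were 6.68, 6.52, 6.34, 6.66 and 6.38. At 12 h they were 10.35, 10.52 and 10.74 after IONT and 11.04, 9.53 and 10.87 after IONC. None of these groups overlapped the naïve arrays, and neither did any later group of either lesion.

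The change of Cebpd at 12 h was 4.02 after IONT (SE 0.40, adjusted p = 2.84e-07), 16.2-fold, and 3.96 after IONC (SE 0.40, adjusted p = 2.26e-07), 15.6-fold. It was smaller at later times but still called at 7 d, at 2.15 after IONT (adjusted p = 0.000932) and 2.75 after IONC (adjusted p = 7.15e-05). At 24 h after IONT the signals were 9.06 and 9.15, with a change of 2.58 that was not called (adjusted p = 0.0108) but was without IONC 12 h replicate 2 (adjusted p = 0.00297), and at 15 d they were 9.34 and 7.17, with a change of 1.73. The pools at 15 d thus differed from each other by more than 2 on the log2 scale. At 3 d after IONT, with 10.04 and 8.60, the change of 2.79 was called (adjusted p = 0.00494), but not without replicate 1 (2.08), naïve replicate 4 (2.94) or naïve replicate 5 (2.65). The calls at 7 d after IONT and 3 d after IONC (2.28) were likewise lost without replicate 1 of that group, at 1.93 and 2.01.

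A further Cebpd probe set, near the bottom of the scale in naïve retina (mean 3.23), correlated with the first at 0.88 over the arrays and was called at 8 times. Its changes at 12 h were larger, 5.59 after IONT and 5.76 after IONC. At 24 h after IONT, in contrast to the first, it differed from naïve by 0.76 (adjusted p = 1), and its change of 2.33 at 3 d after IONT was not called either (adjusted p = 0.0224). A remaining probe set lay between 1.40 and 1.58 on all arrays, at the bottom of the scale. No promoter of Cebpd was matched.

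Cebpb, the paralog that is widely linked to IL-6 and to wound responses, was called higher at 12 h and 48 h after IONT and at 12 h, 24 h, 48 h and 3 d after IONC. Its naïve signals differed by array set, at 5.49, 5.68 and 5.80 in set 1 and 4.49 and 4.52 in set 2. After IONT they were 7.81, 7.31 and 7.64 at 12 h and 7.68, 7.57 and 7.71 at 48 h. By 7 d, at 5.63, 5.48 and 5.08, they were within the range of the 5 naïve arrays. The change at 7 d after IONT was 0.20 against all 5, and -0.26 against those of array set 1 alone.

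The change of Cebpb after IONT was 2.39 at 12 h (SE 0.34, adjusted p = 3.17e-05) and 2.46 at 48 h (SE 0.34, adjusted p = 1.65e-05), the first being 5.26-fold. The fall from 48 h to 7 d was itself called, at -2.26 (SE 0.37, adjusted p = 0.000974), as was that from 12 h to 7 d, at -2.19 (adjusted p = 0.000916). After IONC the signals at 12 h were 8.24, 5.79 and 7.15, with replicate 2 inside the naïve range, and the change was 1.87 (adjusted p = 0.00033), or 2.50 without replicate 2 (adjusted p = 1.13e-06). The later changes after IONC were 1.89, 1.51 and 1.56 at 24 h, 48 h and 3 d. The call at 24 h was lost without its replicate 2 (1.59), that at 48 h without any of its 3 arrays or naïve replicate 4 or 5 (1.33 to 1.59), and that at 3 d without its replicate 1 or 3 or naïve replicate 4 or 5 (1.21 to 1.62). The fall from 48 h to 7 d after IONT lost its call without IONT 7 d replicate 3 (-2.10).

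Against the naïve arrays of their own array set alone, the changes of Cebpb after IONC were smaller, 1.40, 1.42, 1.05 and 1.10 at those 4 times, and none was called (adjusted p from 0.0171 to 0.26). With IONC 12 h replicate 2 left out as well, those at 12 h (2.04) and 24 h (1.42) were called and those at 48 h and 3 d were not. The calls after IONT at 12 h (1.93) and 48 h (2.00) held. Cebpb at 3 d and 15 d after IONT changed by 1.57 and 1.54, not called over all arrays (adjusted p = 0.0809 and 0.0663) but called without IONC 12 h replicate 2 (adjusted p = 0.00492 and 0.00439).

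Cebpa, the third C/EBP factor, was not called at any time. It stayed between 4.34 and 5.85 over all arrays. Its changes ran from -0.58 at 15 d after IONT to 0.22 at 12 h after IONC. Its other 4 probe sets reached at most 4 on any array and had no call.

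**Figure D2:**
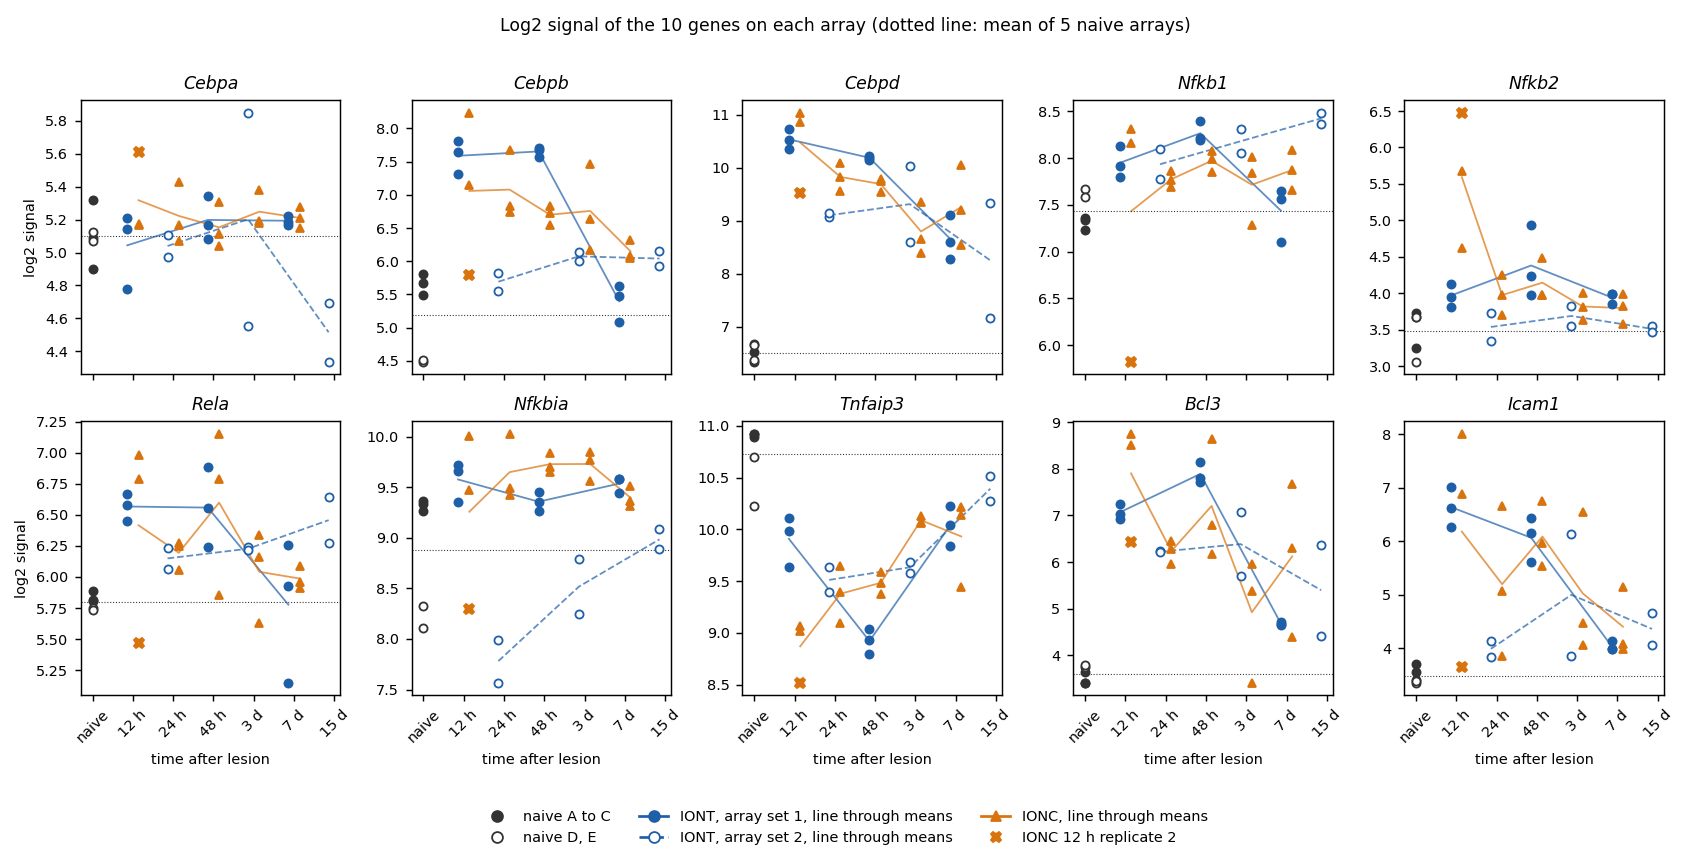
Log2 signal (vertical axis, a scale of its own in each panel) of each gene on every array against time after lesion, with naïve arrays in black, IONT in blue, IONC in orange, open symbols for array set 2 and lines through group means. The IONC 12 h replicate 2 cross is the lowest point of Nfkb1 at 5.82 and the highest of Nfkb2 at 6.48, the open naïve circles of Cebpb and Nfkbia lie below the filled ones, and Tnfaip3 lies below its naïve arrays up to 7 d.

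Promoters were examined because several of these genes are known to be controlled by NF-κB. In RefSeq (build GRCr8), windows from 250 bases before to 50 after the start were matched for 9 of the 10 genes. The κB-like letters searched were GGGNNTTTC and GGGNNTTCC, on both strands, and 5 of the 9 genes held at least 1 match (Nfkb1, Nfkb2, Nfkbia, Tnfaip3 and Bcl3), beside 9.76% of 33469 promoters of the same length. The other letters searched, on both strands, were TTGCNNAA for C/EBP (0 of 9 genes, 10.6% of all), TTCCNGGAA for STAT (Icam1 alone, 1.27%) and TGANTCA for AP-1 (Nfkb2 and Tnfaip3, 7.33%). A match is a description of letters and not a binding site. The windows are shown for a gene called higher at 12 h after IONC (Nfkb2, chr1:255108124-255108423, plus strand), one not called (Nfkbia, chr6:78597023-78597322, minus strand), one called lower (Tnfaip3, chr1:15543930-15544229, minus strand) and one called higher after both lesions (Bcl3, chr1:88613506-88613805, minus strand). Each reads 5′ to 3′ in the direction of the gene, and capitals mark the κB-like letters on either strand and the AP-1 letters.
Nfkb2: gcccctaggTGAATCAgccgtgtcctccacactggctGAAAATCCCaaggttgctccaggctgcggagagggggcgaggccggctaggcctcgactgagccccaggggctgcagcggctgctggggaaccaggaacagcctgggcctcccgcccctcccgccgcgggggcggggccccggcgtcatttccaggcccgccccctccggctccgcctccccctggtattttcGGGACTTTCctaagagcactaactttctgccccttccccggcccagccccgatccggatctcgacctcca
Nfkbia: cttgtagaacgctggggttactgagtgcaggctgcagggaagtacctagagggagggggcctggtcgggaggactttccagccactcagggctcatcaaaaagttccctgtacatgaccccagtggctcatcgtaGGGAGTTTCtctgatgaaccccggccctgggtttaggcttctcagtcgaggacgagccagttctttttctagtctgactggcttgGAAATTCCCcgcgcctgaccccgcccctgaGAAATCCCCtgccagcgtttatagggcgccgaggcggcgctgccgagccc
Tnfaip3: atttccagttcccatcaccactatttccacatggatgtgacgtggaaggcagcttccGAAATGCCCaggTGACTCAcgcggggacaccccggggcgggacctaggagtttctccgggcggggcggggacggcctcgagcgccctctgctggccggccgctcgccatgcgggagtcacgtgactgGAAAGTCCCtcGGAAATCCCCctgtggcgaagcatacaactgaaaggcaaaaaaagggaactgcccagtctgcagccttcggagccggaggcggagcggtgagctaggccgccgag
Bcl3: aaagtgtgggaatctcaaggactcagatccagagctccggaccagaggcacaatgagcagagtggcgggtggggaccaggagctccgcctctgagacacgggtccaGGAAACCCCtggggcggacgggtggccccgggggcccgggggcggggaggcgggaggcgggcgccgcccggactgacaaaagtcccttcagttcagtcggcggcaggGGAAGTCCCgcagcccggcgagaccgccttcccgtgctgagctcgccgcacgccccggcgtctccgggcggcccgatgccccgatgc

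Of the NF-κB subunits, Nfkb2, whose product is processed to p52 in the non-canonical pathway, was called once. Naïve signals of Nfkb2 were low, at 3.73, 3.25, 3.68, 3.06 and 3.68. At 12 h after IONC they were 5.68, 6.48 and 4.62, all above the naïve arrays and above IONT at 12 h (4.13, 3.96 and 3.82). The change at 12 h after IONC was 2.11 (SE 0.27, adjusted p = 6.33e-06), 4.32-fold, and 1.67 without replicate 2 (adjusted p = 4.47e-05). At 24 h after IONC the signals were 3.97, 4.25 and 3.71, with a change of 0.49. The level at 7 d after IONC was lower than at 12 h by a called -1.79 (SE 0.30, adjusted p = 0.00162), and this call ended without replicate 2 (-1.35, adjusted p = 0.0101) or without IONC 7 d replicate 2 (-1.68, adjusted p = 0.0198). After IONT the change of Nfkb2 was highest at 48 h, 0.90 (adjusted p = 0.031, not called).

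Nfkb1, which encodes p105 and p50, was not called in the fit over all arrays. Its naïve signals were 7.34, 7.36, 7.23, 7.67 and 7.58. At 48 h after IONT they were 8.39, 8.19 and 8.21, above all naïve arrays, with a change of 0.83 (SE 0.33, adjusted p = 0.121). At 12 h after IONC they were 8.32, 5.82 and 8.16, with replicate 2 lower than any other array, and the change was -0.01. Without that array the change at 12 h after IONC was 0.80 and called (adjusted p = 0.000784), and so was that at 48 h after IONT (adjusted p = 9.98e-05). Both calls also held without that array against the naïve arrays of their own array set (0.93 and 0.95).

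Rela, the p65 subunit that carries the main transactivation domain, changed by -0.02 to 0.77 after IONT and 0.19 to 0.80 after IONC, and none of these was called. The change at 12 h after IONC went, without IONC 12 h replicate 2, from 0.62 to 1.09 (adjusted p = 0.00442, B not above 0), and still none was called. Its naïve signals lay between 5.74 and 5.89. The 3 arrays at 12 h after IONT were at 6.45 to 6.67, above all naïve arrays. At 48 h after IONC they spread from 5.86 to 7.15.

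Nfkbia, the gene of IκBα, was not called at any time, and its promoter window holds 3 κB-like matches. Naïve arrays had 9.33, 9.37 and 9.27 in array set 1 and 8.11 and 8.33 in set 2 for Nfkbia, a difference of -1.10 (adjusted p = 0.0078, B not above 0). At 48 h after IONC they were 9.84, 9.70 and 9.65, above all naïve arrays, with a change of 0.85 (SE 0.23, adjusted p = 0.0173).

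Without IONC 12 h replicate 2, Nfkbia was called higher in 6 comparisons, at 12 h and 7 d after IONT and at 12 h, 24 h, 48 h and 3 d after IONC, by 0.66 to 0.86. None of the 6 was called when each group was compared with the naïve arrays of its own array set, where the changes were 0.21 to 0.42. Whether Nfkbia was called thus depended on which naïve arrays were used. At 24 h after IONT, against naïve replicates 4 and 5, the change was -0.44 (adjusted p = 0.971).

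Tnfaip3 was the only one of the 10 genes called lower, at 3 of 6 times after IONT and 4 of 5 after IONC. Its naïve signals were 10.89, 10.92, 10.92, 10.70 and 10.23. At 48 h after IONT they were 9.04, 8.79 and 8.93, and at 12 h after IONC 9.02, 8.52 and 9.07. Both groups lay below every naïve array. At 12 h after IONT the signals, 9.63, 10.11 and 9.98, were also below all naïve arrays.

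The change of Tnfaip3 after IONT was -0.82 at 12 h (SE 0.16, adjusted p = 0.00149), -1.81 at 48 h (SE 0.16, adjusted p = 4.64e-08), 3.51-fold lower, and -0.70 at 7 d (SE 0.16, adjusted p = 0.00666). After IONC it was -1.86 at 12 h (SE 0.16, adjusted p = 2.58e-08), 3.64-fold lower, -1.35 at 24 h, -1.25 at 48 h and -0.80 at 7 d (adjusted p = 0.00231). The changes at 24 h after IONT, -0.95 (adjusted p = 0.00669), and 3 d after IONC, -0.64 (adjusted p = 0.00289), were called as well once IONC 12 h replicate 2 was left out. At 15 d after IONT the signals were 10.27 and 10.51, between those of naïve replicates 5 and 4, and the change was -0.07. The calls at 12 h after IONT and 7 d after IONC were lost without replicate 1 of that group, at -0.69 and -0.55. That at 7 d after IONT was lost under 21 of 51 alternatives, 16 of them with 1 array left out (-0.88 to -0.60 over all 51), while those at 48 h after IONT and at 12 h, 24 h and 48 h after IONC held in all 51.

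Tnfaip3 was lowest at 48 h after IONT and at 12 h after IONC. After IONT the step from 12 h to 48 h was a further fall, -0.99 (SE 0.18, adjusted p = 0.00785), a call lost under 21 of 51 alternatives, among them those without any 1 of the 3 IONT 48 h arrays or without IONT 12 h replicate 2 or 3 (-1.04 to -0.89), and that from 48 h to 7 d a rise of 1.11 (SE 0.18, adjusted p = 0.000804). After IONC the level at 7 d was above that at 12 h by 1.06 (SE 0.18, adjusted p = 0.00183), or 0.89 without replicate 2, which was not called (adjusted p = 0.0131), nor was it without IONC 7 d replicate 2 (0.92) or 3 (0.96). Over all pairs of times compared within a lesion, 6 of 80 gene comparisons were called (0.624% of all probe sets), 10 without IONC 12 h replicate 2 (1.88%). The calls of Tnfaip3 and Cebpb fell in comparisons where 0.2% (IONT 48 h minus 12 h), 0.705% (IONT 7 d minus 48 h), 1.42% (IONT 7 d minus 12 h) and 0.599% (IONC 7 d minus 12 h) of all probe sets were called. Whether the 2 courses differ as a whole was not tested.

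Tnfaip3 has a single probe set on the array, annotated through an expressed sequence tag, and whether it measures the A20 transcript was not tested. Its signal is high, with a mean of 9.79 at the 92.7 percentile of all probe sets. Over the 35 arrays the genes most like it were Grk1, the rhodopsin kinase of photoreceptors (r = 0.93), and Nim1k (r = 0.92), among 8663 genes searched. Of 8 measured rod photoreceptor genes, 6 were called lower at 1 or more times (beside 9.09% of all 14217 genes) and 1 was called higher (7.35%). With IONC 12 h replicate 2 left out these counts were 5 (14.5%) and 2 (16.7%). Gnat1, the rod transducin, fell by 1.38 at 48 h after IONT and by 1.27 at 12 h after IONC. The log2 of the summed signal of the 8 rod genes was 16.92 to 17.05 in naïve arrays, 16.56 to 16.71 at 48 h after IONT and 16.30 to 16.57 at 12 h after IONC. The part of rod RNA in the Tnfaip3 result was not tested.

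Bcl3, an atypical IκB protein that works in the nucleus with p50 and p52, was called higher at 12 h and 48 h after both lesions. The naïve signals of Bcl3 were 3.41, 3.42, 3.63, 3.75 and 3.80. After IONT they were 6.92, 7.24 and 7.03 at 12 h and 7.81, 7.71 and 8.15 at 48 h. After IONC they were 8.75, 6.43 and 8.52 at 12 h and 8.64, 6.80 and 6.17 at 48 h. All 4 groups lay above all naïve arrays.

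The change of Bcl3 was 3.46 at 12 h after IONT (SE 0.65, adjusted p = 0.000915) and 4.29 at 48 h (adjusted p = 6.07e-05), 19.5-fold. After IONC it was 4.30 at 12 h (adjusted p = 4.84e-05), 19.7-fold, or 5.04 without replicate 2, and 3.60 at 48 h (adjusted p = 0.000644), which was lost as a call without IONC 48 h replicate 1 (2.89, adjusted p = 0.0142). At 24 h after IONC the change of 2.63 was not called over all arrays (adjusted p = 0.0112) but was without IONC 12 h replicate 2 (adjusted p = 0.0033). At 7 d after IONT the signals were 4.64, 4.68 and 4.72, above naïve but with a change of 1.08 that was not called. At 7 d after IONC the first pool reached 7.67 and the change of 2.52 was not called (adjusted p = 0.0169). A further Bcl3 probe set, which averaged 2.98, was called once, at 12 h after IONC (2.82-fold, adjusted p = 0.00289), and changed by 0.79 and 0.99 at 12 h and 48 h after IONT, without a call.

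Icam1, the adhesion molecule that binds leukocyte integrins and a common readout of NF-κB, was called once. In naïve retina its signals were 3.56, 3.40, 3.70, 3.35 and 3.40. At 12 h after IONT they were 7.02, 6.63 and 6.27, with a change of 3.16 (SE 0.72, adjusted p = 0.00564), 8.93-fold. At 12 h after IONC they were 8.01, 3.64 and 6.88, with replicate 2 inside the naïve range. The change there, 6.48-fold, was not called (adjusted p = 0.00909, B not above 0), while without replicate 2 it was 3.97 on the log2 scale and called (adjusted p = 9.81e-05).

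At 48 h the Icam1 signals were 6.15, 6.44 and 5.60 after IONT and 6.75, 5.97 and 5.54 after IONC, above all naïve arrays. The changes of 2.58 and 2.60 were not called over all arrays (adjusted p = 0.0189 and 0.0213). They were called without IONC 12 h replicate 2, but not without that array against the naïve arrays of their own array set (2.51 and 2.53). The call at 12 h after IONT was lost against the naïve arrays of its own array set, and when any of the 5 naïve arrays or of the 3 IONT 12 h arrays was left out (2.97 to 3.34).

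The lesions were compared directly at 12 h, 48 h and 7 d, and at 24 h and 3 d through the difference of their changes from the naïve arrays of their own array sets. Of 50 comparisons, 2 were called, beside 0.377% over all probe sets, both at 12 h (1.32% of all probe sets at that time). Nfkb2 was the higher after IONC, by 1.62 (SE 0.30, adjusted p = 0.00277) and Tnfaip3 the lower, at -1.04 (SE 0.18, adjusted p = 0.00168). No gene was called between lesions without IONC 12 h replicate 2 (0.695% of all probe sets), where these differences were 1.18 (adjusted p = 0.0196) and -0.86 (adjusted p = 0.0126). Both calls were also lost without IONT 12 h replicate 2 (1.62 and -0.94) or replicate 3 (1.55 and -1.0).

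The other 8 genes differed between lesions at 12 h by -0.53 (Cebpb, SE 0.37) to 0.84 (Bcl3, SE 0.73) over all arrays. When IONC 12 h replicate 2 was left out, all 8 differences were above 0, from 0.11 (Cebpb, SE 0.31) to 1.57 (Bcl3, SE 0.76), so that 6 of them turned: Cebpb, Cebpd (-0.06 to 0.41), Nfkb1 (-0.52 to 0.29), Rela, Nfkbia and Icam1 (-0.46 to 0.81). Those of Cebpd, Rela and Nfkbia turned under cyclic loess normalization as well. No direction can therefore be given for these 6 genes. None of the 8 was called in either fit, which does not show that the lesions acted alike on them. The lesions also differed in their distance from the eye.

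**Figure D3:**
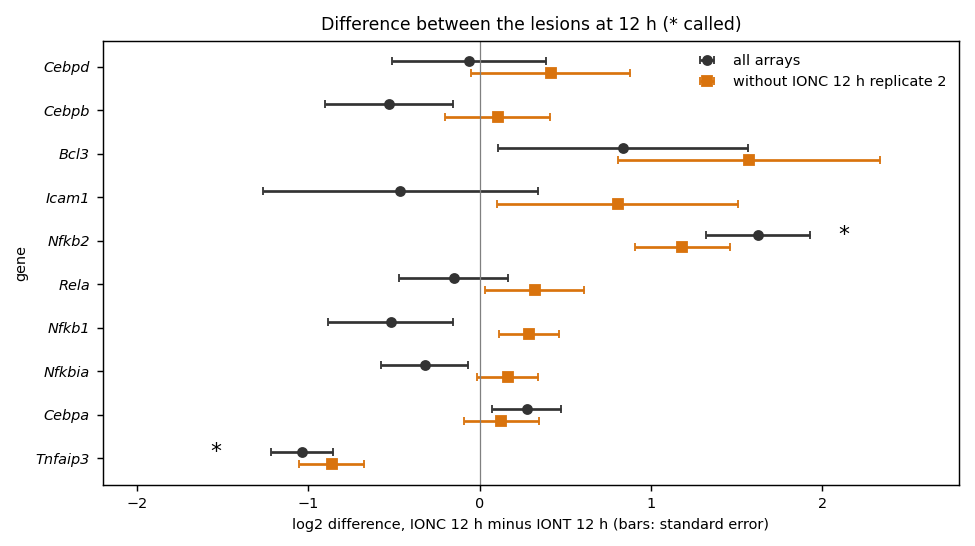
Log2 difference between IONC and IONT at 12 h for each gene, over all arrays (black circles) and without IONC 12 h replicate 2 (orange squares), with bars of 1 standard error and an asterisk for a call. Nfkb2 lies to the right of 0 and Tnfaip3 to the left in both fits, and neither keeps its asterisk in the second.

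The wider pathways were described from lists of genes. These lists were chosen with earlier results of these data known, so their shares are descriptions and not tests. Among receptors that signal to NF-κB, 5 of 13 measured were called higher at some time and none lower, beside 7.35% higher and 9.09% lower of all 14217 genes. Without IONC 12 h replicate 2 the counts were the same, beside 16.7% higher and 14.5% lower. Tnfrsf1a, the main TNF receptor, was called at 7 of 11 times, by 2.86 at 12 h after IONT (adjusted p = 2.69e-05) and 3.17 at 12 h after IONC (adjusted p = 4.16e-06). Tnfrsf12a, the receptor of TWEAK, was called at 3 times, with 3.50 at 48 h after IONT, and Il1r1, the IL-1 receptor, at 12 h after IONC alone (2.07).

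Of 22 measured kinases and adaptors, 3 were called higher (13.6%, beside 7.35% of all genes), 1 lower (4.55%, beside 9.09%) and 18 neither. Without IONC 12 h replicate 2 they were 5 (22.7%, beside 16.7%) and 2 (9.09%, beside 14.5%), so that these shares lay near those of all genes. Myd88, the adaptor of IL-1 and Toll-like receptors, rose by 1.79 at 12 h and 1.64 at 48 h after IONT and by 1.87 at 12 h after IONC. Traf5 fell by 0.64 at 7 d after IONT and Irak3, an inhibitory member of the IRAK family, rose by 1.71 at 3 d after IONT. None of 4 measured other Rel and IκB genes was called (1 was called higher without IONC 12 h replicate 2, 25% beside 16.7% of all genes). Of 7 measured feedback genes, 1 was called higher (14.3%, beside 7.35% of all genes), Tnip2, which binds A20, with 1.55 at 12 h after IONT. Without IONC 12 h replicate 2 there were 2 (28.6%, beside 16.7%).

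Of 33 NF-κB target genes, 6 were called higher at some time (18.2%, beside 7.35% of all genes) and 27 neither. Of 19 measured C/EBP and acute phase target genes, 13 were called higher (68.4%) and none lower. Without IONC 12 h replicate 2 the numbers called higher were 10 (30.3%) and 14 (73.7%), beside 16.7% of all genes called higher in that fit. There, 1 NF-κB target was called lower (3.03%, beside 14.5%). Ccl2, a monocyte chemokine on both lists, rose by 6.18 at 12 h after IONT (adjusted p = 0.00298), Ier3, an immediate early gene, by 2.18 at the same time, and Psmb9, an immunoproteasome subunit, by 2.77 at 12 h after IONC. Serpina3n, an acute phase protease inhibitor, rose by 6.34 at 12 h after IONT (adjusted p = 9.94e-05), and Timp1, an inhibitor of metalloproteinases, was called at 8 times, with 4.67 at 12 h after IONC. The median change of the acute phase list was 1.40 at 12 h and 2.01 at 48 h after IONT and 1.43 at 12 h after IONC, while that of the NF-κB target list was 0.09, 0.05 and 0.46. The difference between these lists was not tested, and both were chosen with earlier results known.

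Other C/EBP family members and partners went lower more often than higher. Of 6, 4 were called lower at some time (66.7%, beside 9.09% of all genes) and 1 higher (16.7%, beside 7.35%). With 2 called in neither direction, the gene called higher was also among those called lower. Without IONC 12 h replicate 2 the counts were the same, beside 14.5% lower and 16.7% higher of all genes. Ddit3 (CHOP), a stress-induced C/EBP, fell by 1.43 at 12 h after IONC. Atf4, a stress factor that acts upstream of Ddit3, fell by 1.09 at the same time. Nfil3, a repressor that shares C/EBP-like sites, fell by 1.32 at 48 h after IONT and rose by 0.89 at 15 d.

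**Figure D4:**
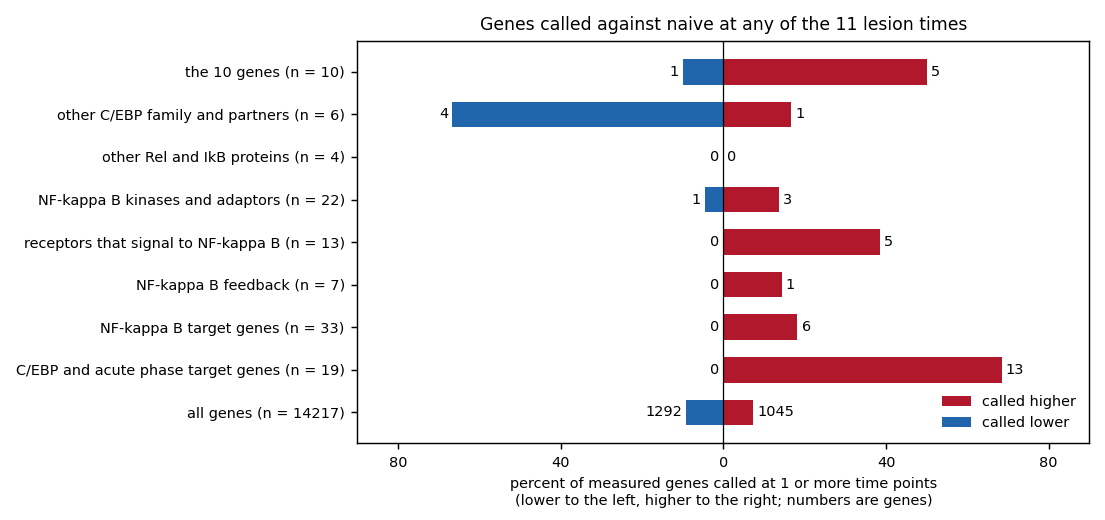
Percent of the measured genes of each list that were called higher (red, right) or lower (blue, left) at 1 or more of the 11 lesion times, with the number of genes at each bar and all 14217 genes at the bottom. The C/EBP and acute phase targets have the longest red bar (13 of 19), the NF-κB targets a shorter one (6 of 33), and the other Rel and IκB proteins no bar. The lists were chosen with earlier results of these data known.

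Markers of other cells also changed after injury, with courses of their own. Of all 14217 genes, 7.35% were called higher at some time and 9.09% lower. Without IONC 12 h replicate 2 these shares were 16.7% and 14.5%. Of 12 microglia and macrophage genes, 8 were called higher, among them C1qb, C1qc and Fcer1g, and 8 without that array. The log2 of their summed signal, in which the brightest genes weigh most, was 7.81 to 8.13 in naïve arrays. It was 8.69 to 9.33 at 12 h after IONT and 8.67 to 10.78 at 12 h after IONC. At 48 h it was 9.71 to 9.93 after IONT and 10.4 to 10.62 after IONC. At 3 d it was 9.73 to 10.74 and 9.56 to 11.14. Itgam, Cd68 and Cx3cr1, which define these cells, stayed near the bottom of the scale, with no array above 3.11. The granulocyte and lymphocyte sum was 5.80 to 5.92 in naïve arrays and 6.13 to 9.91 at 12 h after IONT and 7.40 to 9.11 at 12 h after IONC. At 24 h after IONT this sum was 8.34 to 10.11, and at 48 h 5.9 to 6.19. Of these 8 genes, 0 were called in either fit, and S100a9, a neutrophil and monocyte protein, reached 9.98 on its highest array. The sum of the astrocyte and Müller glia list differed less, at 14.95 to 15.13, 14.89 to 15.04 and 14.27 to 15.29. This sum hides opposite changes. Gfap had means of 7.96 in naïve arrays, 11.36 at 12 h after IONT and 11.34 at 12 h after IONC. Those of the brighter Glul were 12.82, 11.81 and 12.07. Of the 9 genes of this list, 3 were called higher, among them Gfap, and 2 lower (3 and 3 without IONC 12 h replicate 2). Endothelial sums were 12.35 to 12.43, 11.79 to 12.04 and 11.52 to 12.64. They were set mostly by Kdr, with means of 12.29 in naïve arrays, 11.81 at 12 h after IONT and 11.94 at 12 h after IONC. They therefore say little about the other endothelial genes. Of 9, 2 were called higher and none lower (3 and 1 without IONC 12 h replicate 2). Their part in the results for the C/EBP and NF-κB genes was not tested.

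Retinal ganglion cell markers were called lower from 48 h on in the fit over all arrays. Their median change at 12 h was -0.23 after IONT and -0.59 after IONC, without a call. Of 11, 7 were called lower (beside 9.09% of all genes), among them Nefh, Rbpms and Slc17a6. Without IONC 12 h replicate 2, 8 were called lower (beside 14.5%) and 1 higher (beside 16.7%). The log2 of their summed signal went from 13.47 to 13.76 in naïve arrays to 11.01 to 11.33 at 15 d after IONT. At 12 h after IONT it was 13.37 to 13.55. After IONC it was 12.4 to 13.54 at 12 h and 11.97 to 12.55 at 7 d. Genes of the lens list had a log2 summed signal of 15.45 to 16.29 in naïve arrays and 13.85 to 13.89 at 15 d after IONT. Which tissue these lens genes were expressed in was not tested. Of 8, 5 were called lower, with or without IONC 12 h replicate 2.

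Over the 35 arrays Cebpd and Bcl3 followed each other most closely of the 10 genes (r = 0.90), then Cebpb and Icam1 (r = 0.85), and Tnfaip3 ran opposite to Bcl3 (r = -0.79) and Cebpd (r = -0.78). The genes most like Cebpd were Pdpn (podoplanin, r = 0.92) and Litaf (r = 0.91), and those most like Cebpb were Ier3 (r = 0.89) and Junb (r = 0.87). Bcl3 was closest to Myd88 (r = 0.91) and Rad9b (r = 0.91), and Icam1 to Mt2A (r = 0.90) and Lmna (r = 0.89). The rounded likenesses of these 4 genes moved by at most 0.01 without IONC 12 h replicate 2. Without it, however, Serpina3n (r = 0.92) took the place of Litaf for Cebpd, and Myd88 (r = 0.89) that of Lmna for Icam1. Nfkb2 was closest to Lhpp (r = 0.80) and Nopchap1 (r = 0.80), but this rested on that array, without which the values were 0.59 and 0.63 and Manf (0.81) and Gnb2 (0.78) were closest. The correlations are descriptions with no test. They include the difference between lesioned and naïve arrays and between array sets, and the arrays share those conditions.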

How the data were processed

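Retinal RNA of 35 pools, each of 4 retinas, was hybridized to Affymetrix RAE230.2 arrays. The authors deposited log2 signals per probe set made with justGCRMA, which corrects background by probe sequence, normalizes by quantiles and summarizes probes. Its version is not given in the sources used here. Signals were used as deposited, so their precision is limited by the number of arrays. Control probe sets (57) were left out and 31042 tested.

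A linear model with 1 mean per group, the naïve arrays as 2 groups by array set, was fitted with limma 3.58.1 in R 4.3.3, with Benjamini-Hochberg adjustment within each comparison. The thresholds follow the study's methods. The procedure was tested on simulated data. The 10 genes, the lists and the tests were chosen with earlier results of these data known. Named were all 10 genes, up to 3 called genes of each other list with the largest mean change, and the 2 genes most correlated with each called gene. Of the tested probe sets, 20826 carried 1 symbol, 436 several and 9780 none.

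The replicate numbers were not used to pair the pools. Residuals of arrays with the same number had a median correlation of 0.023, above 0.1 in 38 of 168 pairs. For arrays with other numbers it was -0.005, above 0.1 in 57 of 390 pairs. With the replicate number as a block, the consensus correlation was -0.012. Alternatives changed the naïve reference, thresholds, filter, arrays fitted, variance model, array weights, normalization and probe set, and left out each array. Naïve arrays of the own array set, or all 5, together without IONC 12 h replicate 2, were chosen after seeing the data.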

Additional observations from a re-analysis of the deposited data

Results flagged for a closer look

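At 12 h the lesions differed in 2 of the 10 genes by a direct test. Nfkb2 was the higher after IONC, by 1.62, and Tnfaip3 differed by -1.04. Both calls ended without IONC 12 h replicate 2, the array that stood apart, at 1.18 for Nfkb2 and -0.86 for Tnfaip3, with the same direction. Among the naïve arrays, the 1 group large enough for such a check, no single array lay far from the rest in any of the 10 genes. The check cannot find a pair of arrays that stand apart together, as naïve replicates 4 and 5 did for Cebpb (4.49 and 4.52, the others at 5.49 to 5.80) and Nfkbia (8.11 and 8.33, the others at 9.27 to 9.37).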

How the results depend on the processing

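Over all alternatives to each gene's change, 11989 values kept their side of the threshold, 126 lost a call, 183 gained one, and 12 that were called in 1 of the fits reversed. Of the 11989, 216 that were called in neither fit changed sign, 13 of them without IONC 12 h replicate 2. With 1 array left out in turn, the called comparisons numbered 9 to 20 after IONT (12 over all arrays), 14 to 25 after IONC (16), 0 to 2 between lesions (2) and 4 to 10 between time points (6). The highest counts for IONT, IONC and time points, 20, 25 and 10, came without IONC 12 h replicate 2. Between lesions the count was 0 without that array and without IONT 12 h replicate 2 or replicate 3. Fitting IONT and naïve arrays alone gave 21 calls after IONT, and an adjusted p under 0.05 without B gave 11 between time points. Array weights, whose estimation did not converge, gave 19, 31, 5 and 32. Cyclic loess gave 1 between lesions. Of the fits chosen after seeing the data, both without IONC 12 h replicate 2, own-set naïve arrays gave 0 between lesions and 10 between time points, and all 5 naïve arrays gave 19 after IONT. With the replicate number as a block the counts were 12, 16, 2 and 6, and no call of the 10 genes was changed.

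The change of Nfkb1 at 12 h after IONC, -0.01 over all arrays, ran from -0.45 to 0.80 with 1 array left out, the latter without IONC 12 h replicate 2, and reversed to 0.93 without that array against own-set naïve arrays, to 0.80 against all 5, and to 0.88 with array weights. Array weights also reversed IONC minus IONT at 12 h for Nfkb1 (0.40) and Nfkbia (0.41), IONC 24 h minus 12 h for Cebpb (-1.34), Nfkb1 (-0.60) and Nfkbia (-0.52), and IONC 7 d minus 12 h for Nfkb1 (-0.48) and Nfkbia (-0.58). The Cebpd probe set at the bottom of the scale gave -0.01 at 3 d after IONT. The cause of these reversals was not tested. Centring arrays on their medians moved the share of higher calls over all probe sets from 73.6% to 46.6% at 24 h, from 68.9% to 39.3% at 3 d and from 81.7% to 10% at 15 d after IONT, where it shifted the median of all probe sets to -0.252, and cyclic loess moved it from 24.5% to 47.5% at 12 h after IONC and from 73.6% to 61.9% at 24 h after IONT. Of the differences between lesions, median centring moved the share of higher calls from 16.4% to 39.6% at 24 h and from 17.9% to 55.8% at 3 d, and cyclic loess from 8.5% to 25.3% at 12 h and from 66.7% to 53.4% at 48 h. Neither turned a called change of the 10 genes, but uncalled ones changed sign in 6 comparisons under median centring, among them Nfkb2 at 15 d (0.14 to -0.07) and Cebpa at 3 d after IONT (0.10 to -0.04), and in 15 under cyclic loess, among them Nfkb1 at 12 h after IONC (-0.01 to 0.46). Signals near the bottom of the scale, as for Nfkb2 and the naïve arrays of Bcl3 and Icam1, limit what fold changes can show.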
